A study of Drosophila melanogaster with 7 samples.

Results

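The IMD pathway is an innate immune signalling route of the fly that answers the peptidoglycan of Gram-negative bacteria. Receptors of the PGRP family bind peptidoglycan and recruit the adaptor protein Imd. Imd then acts through Fadd and the caspase Dredd, and through Tak1 and Tab2, on an IκB kinase complex. This complex, made of the products of IKKbeta and key, activates the NF-κB factor Relish, which enters the nucleus and turns on antimicrobial peptide genes. Pirk and the amidase PGRP-LB act back on the pathway as brakes, and in infected flies both are themselves switched on by Relish. The 10 genes described here are imd, key, IKKbeta, Rel, pirk, PGRP-LA, PGRP-LB, PGRP-LE, PGRP-LF and PGRP-SB1. They were taken by gene symbol from the platform annotation, in which each had 1 probe set of its own, out of 18769 fly probe sets and 11982 named genes.

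Expression was measured on 7 Affymetrix arrays of salivary glands dissected from fly prepupae 14 h after the puparium had formed. GAL4, an activator of yeast genes with no fly counterpart, was made here from a heat-shock transgene. Line X1, which carried P{hs-GAL4}X1 in 2 copies, had 3 arrays. Line 89, which carried P{GAL4-Hsp70.PB}89-2-1, was hybridised once for the 2-copy genotype and once for the 1-copy genotype. The control, strain w1118, for which the labels name no GAL4 transgene, had 2 arrays. All animals were reared at 25 °C and given 30 min at 37 °C. In the GAL4 lines this heat shock came 9 h after puparium formation, which left 5 h to dissection, and in w1118 it came at 9.5 h, which left 4.5 h. The effect of GAL4 cannot be told apart from that of this interval, nor from strain background, in any comparison with w1118. The heat-shock promoter is active in most tissues, so GAL4 may not have been limited to the gland. Each line is 1 transgene insertion, and the sources used here do not give the number of animals per array. The series text calls the X1 and w1118 arrays biological replicates.

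Levels are dChip intensities on a linear scale, scaled by the authors to one baseline array. Values under 16 were raised to 16 before log2 was taken, which touched none of the 70 values of these genes. Changes were tested with limma's moderated test, and calls were made where p, after Benjamini-Hochberg adjustment across the 18769 probe sets, was under 0.05. Changes, their standard errors (SE) and their 95% intervals are on the log2 scale, and intensities are given with the SD between arrays. In a dissected gland, fewer cells of a type and less RNA per cell cannot be told apart.

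X1 replicate 1 stood apart from the other X1 arrays. Its log2 values correlated with theirs at r = 0.958 and 0.956 across probe sets, against r = 0.985 between replicates 2 and 3, and 30.0% of its probe sets lay under 16, against 23.4% and 23.7%. For 7 of the 10 genes it was the lowest X1 array. It held this position for 51.1% of all fly probe sets and for 58.3% of those with an X1 mean of at least 100. The 3'-to-5' signal ratio of the bacterial dap control RNA was 15.8 to 18.7 on X1 arrays, 3.95 to 3.96 on line 89 arrays and 2.55 to 3.12 on w1118 arrays, whereas that of fly actin was 2.39 to 3.95, 2.16 to 3.24 and 2.61 to 2.70 in the same order. The part of this control difference in the results was not tested. Of 19 gland markers, 8 genes of the late prepupal Eig71E cluster lay at 1000 or more on every array, while the larval gland genes ng2 and ng3 lay under 100 on all of them. Of 18 hemocyte markers, 7 lay under 100 on every array, among them the defining genes Hml, NimC1 and eater, which reached at most 54.7, 76.0 and 21.6. Others were bright, with the ferritin gene Fer1HCH at 7361 to 9975 and the scavenger receptor gene crq at 1489 to 3090. The fat body genes Lsp2 and Fbp1 were not absent, at 4178 to 6458 and 1089 to 4630. The part of fat body RNA in the results was not tested.

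Among the 10 genes, PGRP-LB, pirk and IKKbeta rose in X1 against w1118, and PGRP-LB rose in line 89 as well. In X1, 3 genes were called higher and 0 lower, with 7 not called. Over all fly probe sets 7.5% were called higher and 10.6% lower in that comparison. At an unadjusted p under 0.05 limma counted 6 of the genes higher and 1 lower, where 12.5% and 20.6% of all probe sets passed. In line 89 against w1118, 1 was called higher and 0 lower, with backgrounds of 2.73% and 1.65%, and 3 and 1 had an unadjusted p under 0.05, beside 9.62% and 8.26% of all probe sets. In a fit that leaves line 89 or w1118 with 1 array, that array was assumed to vary like the other groups. The median log2 change of the 10 was 0.68 in X1 and 0.38 in line 89, against medians of -0.09 and 0.0 over all probe sets. Every X1 array lay above both w1118 arrays for 6 of the genes and below them for 3, beside 19.4% and 33.4% of all probe sets. The 3 include PGRP-SB1, whose nearest X1 and w1118 values both round to 49.0. Both line 89 arrays lay above w1118 for 5 and below for 3, beside 22.4% and 23.0%. The 2 comparisons share their w1118 arrays. Scaling to the hybridization controls moved the median change of all probe sets to 0.25 in X1 and 0.4 in line 89, and turned the X1 split of 1407 higher and 1997 lower probe sets into 2020 and 530.

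**Figure D1:**
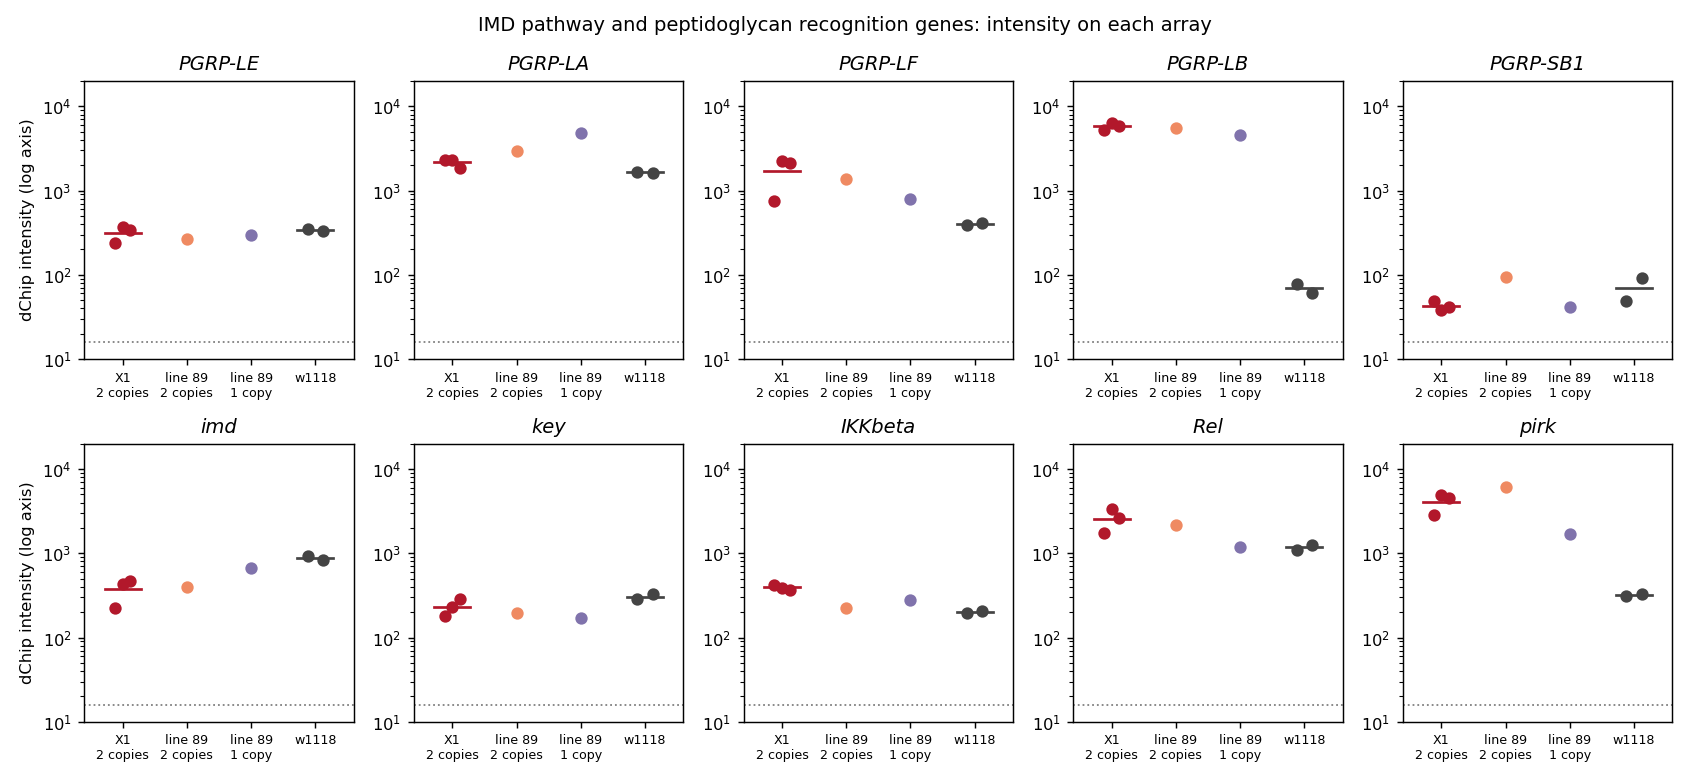
Intensity (log axis) of each of the 10 genes on each of the 7 arrays, with X1, line 89 with 2 copies, line 89 with 1 copy and w1118 from left to right. Points are arrays, short bars are means where a group has more than 1 array, and the dotted line is the floor of 16. PGRP-LB lies at 4592 or more on every GAL4 array and at 78.5 or less on both w1118 arrays, and the lowest GAL4 array for pirk is the one with 1 copy.

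Receptors and receptor-like proteins stand at the head of the pathway. PGRP-LE, a receptor that senses peptidoglycan inside and outside cells, had 242, 365 and 336 in X1. It had 264 in line 89 with 2 copies and 294 with 1 copy, against 354 and 332 in w1118. The X1 arrays overlapped with the controls, and both line 89 arrays lay below them. The log2 change was -0.15 in X1 (95% interval -0.76 to 0.47, adjusted p = 0.694 by limma) and -0.30 in line 89 (-0.86 to 0.26, adjusted p = 0.585). Its sign turned with hybridization control scaling, to 0.52 and 0.28, and without X1 replicate 1 the X1 value was 0.03.

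PGRP-LA, a family member tied to IMD signalling in barrier epithelia of the fly, had 2298, 2328 and 1859 in X1. It stood at 2959 in line 89 with 2 copies and 4892 with 1 copy, against 1650 and 1639 in w1118. The 1-copy array was the highest of the 7, and no GAL4 array reached down to the w1118 level. The difference was 0.39 ± 0.13 (SE) in X1 (adjusted p = 0.135 by limma) and 1.21 ± 0.27 in line 89 (adjusted p = 0.0911), so neither was called. A call depended on the probe sets kept and on single arrays. With probe sets under 100 in both group means dropped, line 89 was called (adjusted p = 0.0473 by limma). With the 1-copy array alone, its spread taken from the other groups, line 89 gave 1.57 (adjusted p = 0.0323), and without X1 replicate 3 the X1 change was 0.49 (adjusted p = 0.0390), while quantile normalisation turned it to -0.09.

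PGRP-LF, a membrane protein that binds the receptor PGRP-LC and holds the pathway down in the absence of infection, had 744, 2246 and 2122 in X1. Line 89 had 1355 with 2 copies and 787 with 1 copy, against 388 and 410 in w1118. Every GAL4 array exceeded both w1118 arrays, and X1 replicate 1 was about level with the 1-copy array. The X1 change was 1.93 ± 0.60 (3.82-fold, adjusted p = 0.121 by limma) and that of line 89 was 1.37 ± 0.63 (2.59-fold, adjusted p = 0.366). Without X1 replicate 1 the change was 2.45 and was called (adjusted p = 0.00671). The X1 change was also called with probe sets under 100 in both group means dropped (adjusted p = 0.0303 by limma).

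PGRP-LB, which encodes an amidase that cleaves peptidoglycan and thereby removes the ligand of the receptors, showed the largest change of the 10 genes in both lines. It had 5253, 6362 and 5792 in X1. It had 5496 in line 89 with 2 copies and 4592 with 1 copy, against 78.5 and 60.3 in w1118. All GAL4 arrays were within a narrow band and far above both controls. Expression averaged 5803 ± 555 in X1 and 69.4 ± 12.9 in w1118 (SD, n = 3 and 2). This is an 84.1-fold rise, 6.39 ± 0.16 on the log2 scale (adjusted p = 0.00097 by limma), and line 89 rose 73.0-fold (6.19 ± 0.18, adjusted p = 0.000533). The probe set carries the suffix _s_at, which Affymetrix gives to probes that can match more than 1 transcript, and the annotation names PGRP-LB alone for it.

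PGRP-SB1, a secreted amidase, had 49.0, 38.7 and 41.4 in X1. It had 93.5 in line 89 with 2 copies and 42.0 with 1 copy, against 49.0 and 90.5 in w1118. These are dim values whose ranges met, and the control arrays differed more between themselves than the group means did. The change was -0.64 in X1 (95% interval -1.55 to 0.28, adjusted p = 0.277 by limma) and -0.09 in line 89 (-1.33 to 1.15, adjusted p = 1.0).

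Of imd, key, IKKbeta and Rel, the signalling core, IKKbeta was called in X1 and none in line 89. The gene imd, for the adaptor that links receptors to the kinases, had 227, 428 and 474 in X1. Line 89 had 393 with 2 copies and 666 with 1 copy, against 933 and 843 in w1118. Both w1118 arrays were the highest of the 7 and the 1-copy array was nearest to them. The difference was -1.31 ± 0.39 in X1 (adjusted p = 0.111 by limma) and -0.79 ± 0.45 in line 89 (adjusted p = 0.485). Without X1 replicate 1, the lowest array, the X1 value was -0.98 with a smaller spread and was called (adjusted p = 0.0243). Dropping probe sets under 100 in both group means also gave a call in X1 (adjusted p = 0.0319 by limma).

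The regulatory subunit gene key, the fly counterpart of IKKγ, had 180, 230 and 283 in X1. The line 89 arrays had 198 (2 copies) and 171 (1 copy), against 284 and 328 in w1118. The GAL4 arrays lay below both controls, by little in the case of X1 replicate 3. The change was -0.43 in X1 (95% interval -1.09 to 0.24, adjusted p = 0.312 by limma), which turned to 0.24 with hybridization control scaling. In line 89 it was -0.73 (-1.34 to -0.12, adjusted p = 0.206).

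IKKbeta, the catalytic kinase subunit, had 424, 392 and 365 in X1. On the line 89 arrays it had 223 (2 copies) and 276 (1 copy), against 195 and 204 in w1118. The 3 X1 arrays were the highest and did not overlap with either line 89 array. The mean was 394 ± 29.6 in X1 and 200 ± 7.01 in w1118 (SD, n = 3 and 2), a 1.97-fold rise (0.98 ± 0.08, adjusted p = 0.00832 by limma). Line 89 differed from w1118 by 0.32 ± 0.14 (adjusted p = 0.344). The X1 call ended with a floor of 1 (adjusted p = 0.0611), without w1118 replicate 1 (0.94, adjusted p = 0.0545) and with all 5 GAL4 arrays as 1 group (0.71, adjusted p = 0.215).

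Rel, which encodes the transcription factor Relish, had 1755, 3377 and 2606 in X1. The line 89 arrays had 2190 (2 copies) and 1186 (1 copy), against 1108 and 1254 in w1118. The 4 arrays with 2 copies stood above both controls, and the 1-copy array lay between them. The change was 1.08 ± 0.33 in X1 (2.11-fold, adjusted p = 0.114 by limma) and 0.45 ± 0.42 in line 89 (adjusted p = 0.675). Without X1 replicate 1 the X1 change was 1.33 and was called (adjusted p = 0.0395). So was the change of 1.08 with probe sets under 100 in both group means dropped (adjusted p = 0.0376 by limma).

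The inhibitor gene pirk, whose product binds Imd and the receptors and dampens signalling, had 2839, 4894 and 4494 in X1. It reached 6206 in line 89 with 2 copies and 1684 with 1 copy, against 314 and 325 in w1118. No GAL4 array came near the controls, and the highest and the lowest of the GAL4 arrays were those of line 89. Expression averaged 4076 ± 1089 in X1 and 319 ± 7.80 in w1118 (SD, n = 3 and 2), a 12.4-fold rise (3.64 ± 0.29, adjusted p = 0.00682 by limma). The call ended without w1118 replicate 1 (3.61, adjusted p = 0.0549) or replicate 2 (3.66, adjusted p = 0.0526). In line 89 the change was 3.34 ± 0.66 (10.1-fold) and was not called with the copy number difference counted as spread (adjusted p = 0.0691). With the 2-copy array alone it was 4.28 (adjusted p = 0.0142), again with the spread of the other groups.

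**Figure D2:**
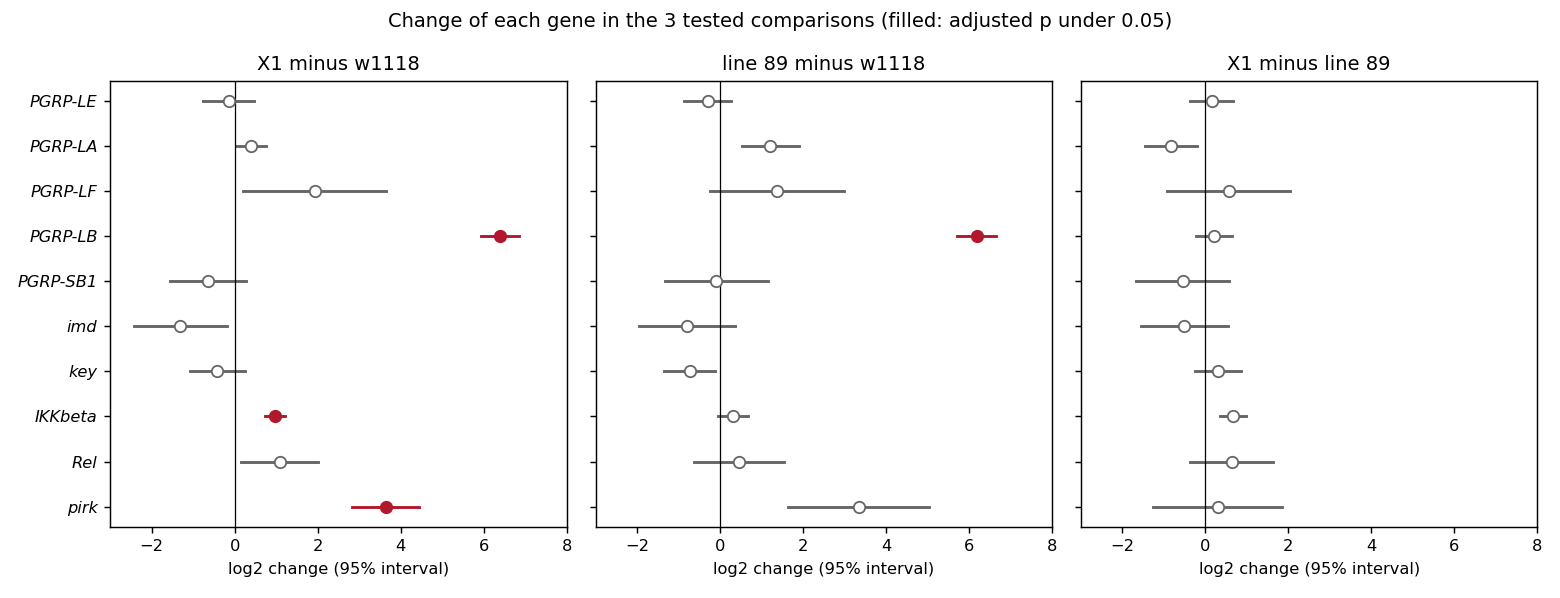
Log2 change of each gene with its 95% interval from limma, for X1 minus w1118, line 89 minus w1118 and X1 minus line 89. Filled points are called at an adjusted p under 0.05. PGRP-LB, pirk and IKKbeta are filled for X1 and PGRP-LB for line 89, and no point is filled in the comparison of the lines.

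The direct comparison of X1 with line 89 set 3 arrays of 2 copies against 1 array of 2 copies and 1 of 1 copy, so insertion and copy number cannot be told apart in it. It called 0 of the 10 genes in limma, beside 0.73% of all probe sets higher and 1.25% lower in X1. At an unadjusted p under 0.05 there were 1 higher, IKKbeta, and 1 lower, PGRP-LA, beside 6.42% and 12.9% of all probe sets. In either direction this is 2 of 10 genes, against a background of 19.3%. IKKbeta was 394 in X1 and 250 in line 89 (0.66, 95% interval 0.34 to 0.99, adjusted p = 0.0813), and PGRP-LA was 2162 and 3926 (-0.82, -1.45 to -0.20, adjusted p = 0.169). They were also the only 2 genes whose X1 and line 89 arrays did not overlap, 1 above and 1 below, beside 11.4% and 23.8% of all probe sets. IKKbeta was called without the 1-copy array (0.82, adjusted p = 0.0459), and PGRP-LA without the 2-copy array (-1.19, adjusted p = 0.0453), each against a single line 89 array whose spread came from the other groups. For PGRP-LB the difference was 0.20 with an interval of -0.23 to 0.64. For pirk it was 0.30 with an interval of -1.26 to 1.85, and it turned to -0.65 without the 1-copy array.

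Line 89 with 2 copies and with 1 copy had 1 array each, so their ratio has no replicate check and no test. Of the 10 genes, pirk (6206 with 2 copies, 1684 with 1 copy, 3.69-fold) and the dim PGRP-SB1 (93.5 and 42.0, 2.22-fold) were at least 2-fold higher with 2 copies. No gene was at least 2-fold lower. Over all probe sets, 10.7% were higher and 7.75% lower by at least 2-fold. Rel (2190 and 1186) and PGRP-LF (1355 and 787) had ratios of 1.85 and 1.72. PGRP-LB had 5496 and 4592, a ratio of 1.2, so its 1-copy array already lay 6.06 log2 units above the w1118 mean. For imd (393 and 666) and PGRP-LA (2959 and 4892) the 1-copy array was the brighter, 1.69-fold and 1.65-fold.

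**Figure D3:**
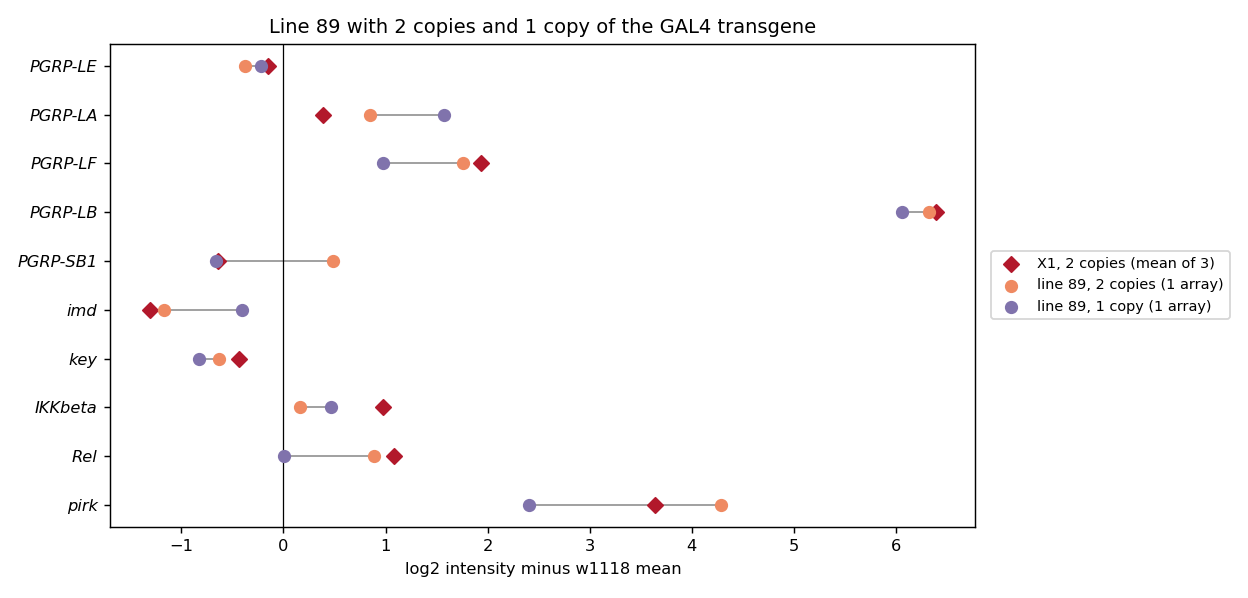
Log2 intensity minus the w1118 mean for each gene, as the X1 mean of 3 arrays (diamonds) and as single line 89 arrays with 2 copies and 1 copy joined by a line. The longest line is that of pirk, at 4.28 with 2 copies and 2.40 with 1 copy, and PGRP-LB has 6.32 and 6.06.

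Other signalling genes of the pathway moved in both directions in X1. Of 9 measured among 11 listed, 2 rose, 1 fell and 6 were not called, beside 7.5% of all probe sets higher and 10.6% lower. Their median change was -0.34, against -0.09 over all probe sets. Without X1 replicate 1, 2 were called higher and 3 lower, where 10.3% and 11.9% of all probe sets were. Tab2, the partner of the kinase Tak1, had 5624, 5910 and 5310 in X1. It had 3653 on the 2-copy array and 2141 on the 1-copy array, against 460 and 634 in w1118. It rose in X1 (3.38 ± 0.17, adjusted p = 0.00279 by limma) and in line 89 (2.37 ± 0.30, adjusted p = 0.0235), though the line 89 call ended without w1118 replicate 1 (2.14, adjusted p = 0.103) or 2 (2.60, adjusted p = 0.0709). Fadd, the adaptor between Imd and Dredd, had 555, 761 and 748 in X1, against 63.2 and 58.2 in w1118. It rose 11.2-fold (3.49 ± 0.18, adjusted p = 0.00304). In line 89 Fadd had 640 with 2 copies and 142 with 1 copy, and the difference from w1118 was not called (2.31 ± 0.71, adjusted p = 0.187).

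Charon, which encodes an ankyrin-repeat protein and was listed here with the signalling genes, fell in X1. It had 24.9, 28.2 and 29.3 against 116 and 170 in w1118 (-2.36 ± 0.20, adjusted p = 0.00831 by limma). Its line 89 values were 28.5 and 51.9. The call ended without X1 replicate 2 (adjusted p = 0.0504) and with a floor of 64. The ubiquitin ligase gene Diap2, whose product is needed to activate Relish, missed the threshold in both lines and is named outside the rule for called genes. It had 1011, 1777 and 1448 in X1 and 1208 and 1482 in line 89, against 4196 and 3264 in w1118 (-1.43, adjusted p = 0.0564 in X1 and -1.47, adjusted p = 0.0812 in line 89).

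Of 10 measured negative regulators among 11 listed, 0 rose and 2 fell in X1, with a median change of -0.95. Over all probe sets 7.5% were called higher and 10.6% lower, with a median of -0.09. The 10 include cad, which lay under 16 on every array. dnr1, a RING-domain protein that restrains Dredd, had 125, 246 and 237 in X1 and 388 and 459 in line 89, against 841 and 780 in w1118 (X1 change -2.06 ± 0.37, adjusted p = 0.0392 by limma). It lost the call without each w1118 replicate and without X1 replicate 2 or 3, with adjusted p between 0.0934 and 0.194. The transcription factor gene zfh1 was dim, with 14.5 to 21.4 in X1 and 37.8 and 37.9 in w1118, and its call ended in most alternatives. Without X1 replicate 1, 1 of the 10 was called lower, beside 11.9% of all probe sets.

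Beside PGRP-LA, -LB, -LE, -LF and -SB1, the probe sets of 2 further PGRP genes could be read singly. PGRP-SC2, another amidase, had 554, 346 and 349 in X1. It had 699 on the 2-copy array and 467 on the 1-copy array, against 95.4 and 137 in w1118. It rose in X1 (1.83 ± 0.31, adjusted p = 0.0361 by limma) and in line 89 (2.32 ± 0.36, adjusted p = 0.0388), and both calls ended without either w1118 replicate (adjusted p between 0.106 and 0.171). Other single arrays ended them too, namely X1 replicate 2 (0.0991), X1 replicate 3 (0.0987) and, in line 89, the 2-copy array (0.110). In PGRP-SB2 the odd X1 array stood far from the others, with 5171 in replicate 1, 446 and 465 in replicates 2 and 3, and 2114 and 1546 in w1118. It was not called (-0.82, adjusted p = 0.735), and without replicate 1 it was called lower. PGRP-LC, the main membrane receptor, was not analysed here.

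Antimicrobial peptide genes, the outputs of Relish and of the Toll pathway, changed in both directions in X1. Of 13 measured among 22 listed, 2 rose, 5 fell and 6 were not called, with a median change of 0.01. Over all probe sets 7.5% were called higher and 10.6% lower, with a median of -0.09. Without X1 replicate 1, the peptide counts were 1 higher and 5 lower, beside 10.3% and 11.9% of all probe sets. Defensin (Def) had 13471, 13665 and 13680 in X1 and 13017 and 15624 in line 89, against 3385 and 1415 in w1118. It rose in X1 (2.64 ± 0.42, adjusted p = 0.0312 by limma) and in line 89 (2.70 ± 0.41, adjusted p = 0.0387). Its GAL4 values lie near the top of the scale, where the brightest probe set of each array had 16393 to 17212. Drosomycin (Drs), best known as a Toll target, had 7090, 4807 and 5241 in X1, against 2622 and 1838 in w1118 (1.36 ± 0.26, adjusted p = 0.0466). Leaving out any single X1 array ended both X1 calls, and either w1118 array that of Drs. The line 89 call of Def ended without either of its own arrays (adjusted p = 0.0863 and 0.102).

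The genes that fell in X1 were edin, CecB, AttD, Drsl5 and DptB, of which DptB was chosen after its values were seen. edin, a small secreted peptide gene of the fly's infection response, had 7.2 to 18.6 in X1, where replicates 2 and 3 lay under the floor of 16. It had 274 on the 2-copy array and 246 on the 1-copy array, against 155 and 143 in w1118. It was at least 8.86-fold lower in X1, with the X1 values under 16 set to 16 (adjusted p = 0.00133 by limma). The log2 change of -3.15 follows this floor and was -3.76 with a floor of 1 and -1.22 with a floor of 64. edin rose in line 89 (0.80 ± 0.12, adjusted p = 0.0366), a call that held in 3 of 12 alternatives.

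Cecropin B (CecB) had 102, 243 and 325 in X1. It had 6259 on the 2-copy array and 10548 on the 1-copy array, against 4993 and 3075 in w1118. X1 was far below all other arrays, and CecB was 19.5-fold lower than in w1118 (-4.29 ± 0.63, adjusted p = 0.0258 by limma). Attacin D (AttD) averaged 103 ± 30.0 in X1 and 400 ± 24.8 in w1118 (SD, n = 3 and 2; -2.01, adjusted p = 0.0296). Diptericin B (DptB) averaged 73.7 ± 22.9 in X1 and 244 ± 32.4 in w1118 (-1.76, adjusted p = 0.0381). Drsl5, a Drosomycin-like gene, averaged 206 ± 26.9 and 416 ± 44.3 in the same order (-1.02, adjusted p = 0.0253). The calls of CecB, AttD and DptB ended without X1 replicate 2 or 3 or either w1118 array (adjusted p between 0.0628 and 0.188), and that of Drsl5 without X1 replicate 2 or either w1118 array (0.0908 to 0.130).

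The comparison of X1 with line 89 called 3 of the 13 peptide genes lower and 0 higher, beside 1.25% and 0.73% of all probe sets. These were edin (at least 15.4-fold lower, adjusted p = 0.00223), CecB (-5.34, adjusted p = 0.0340) and DptB (-2.02, adjusted p = 0.0465) by limma. All 3 calls ended without X1 replicate 2 or 3, at adjusted p from 0.0526 to 0.136, in fits that called 0 probe sets in all. Those of CecB and DptB also ended without the 1-copy array (0.0626 and 0.0846) and that of DptB without the 2-copy array (0.0896). Summed intensity of the fat body markers was 12968 to 19391 in X1, 15027 and 21560 in line 89 and 14612 and 15872 in w1118, with 1 of 11 genes rising and 2 falling in X1. Lsd-1 rose in that list (3.80, adjusted p = 0.0135 by limma), and Fbp2 (-5.51, adjusted p = 0.00595) and Yp1 fell. Lsd-1 alone had 4246 to 8388 in X1, 7728 and 618 in line 89, and 320 and 510 in w1118. The sums therefore do not show the level of the other fat body markers. Fbp1 (1089 to 2333) and Lsp2 (4178 to 5260) lay lower on all X1 arrays than on all others. The third bright marker, apolpp, lay below line 89 but overlapped with w1118, and none of these was called. Summed hemocyte markers were 13967 to 15224, 13177 and 15190, and 13451 and 13490 in the same order. Most of each sum was Fer1HCH, at 7360.5 to 9975.4. Of the 18 hemocyte genes 0 rose and 3 fell in X1 (NimC1, NimC2 and Ppn). Of 19 gland markers 3 rose and 2 fell in X1. Beside these marker counts in X1 against w1118, 7.5% of all probe sets were called higher and 10.6% lower. The part of these marker changes in the peptide genes was not tested.

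**Figure D4:**
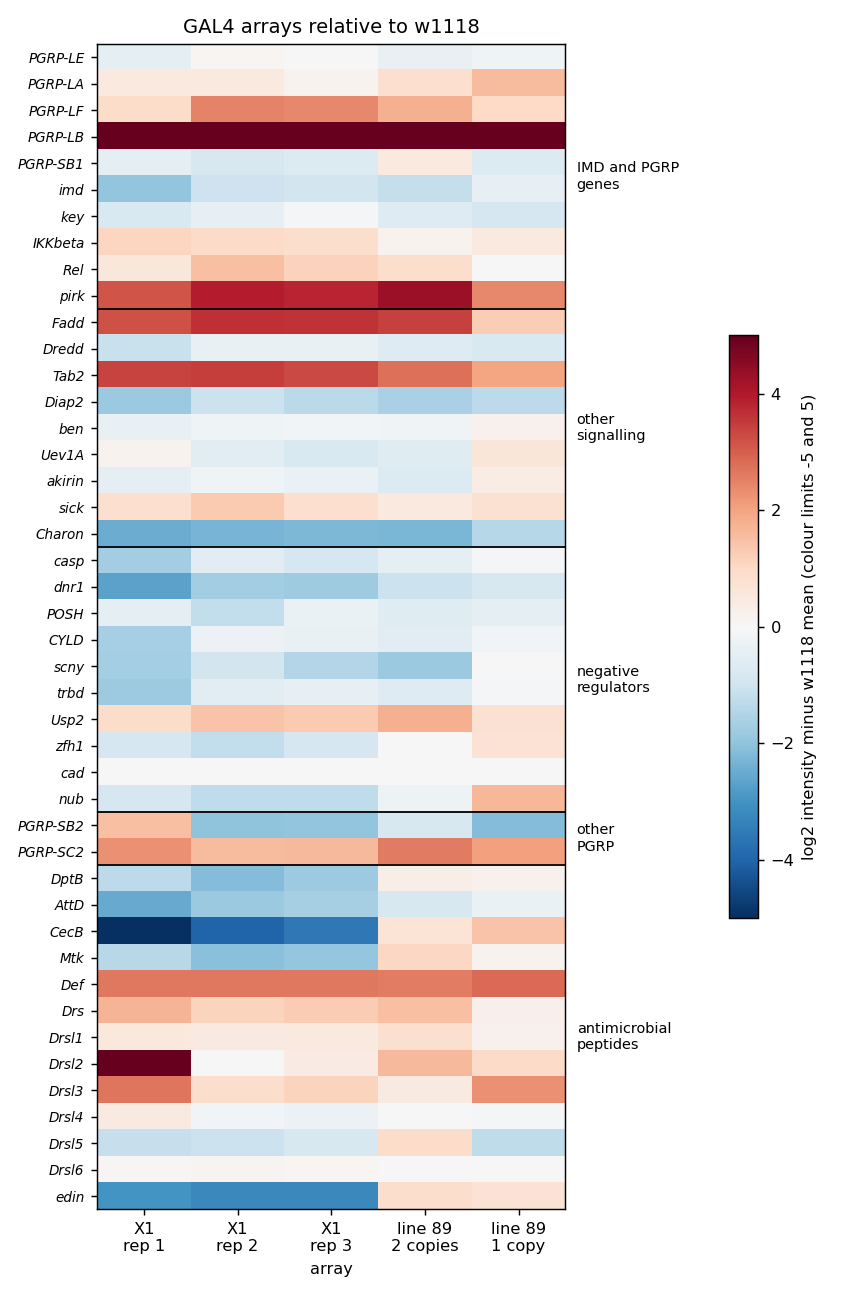
Log2 intensity minus the w1118 mean on each GAL4 array (columns, X1 replicates left of line 89), with rows for the 10 genes and for the other signalling, negative regulator, PGRP and antimicrobial peptide genes measured. Values are after the floor of 16, and the colour scale stops at -5 and 5. PGRP-LB is beyond the scale on all 5 arrays, and CecB and edin are blue on the X1 arrays and red on the line 89 arrays.

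The genes beside the 10 on the chromosomes were read as well. Of the 20 nearest measured neighbours, 1 on each side of each gene in the Release 6 gene table, 13 were directly adjacent, and PGRP-LA and PGRP-LF counted as each other's neighbour. limma called 0 of the 20 in X1 and 0 in line 89, with 5 and 4 at an unadjusted p under 0.05, where 33.1% and 17.9% of all probe sets passed. PGRP-LC lies between PGRP-LA and PGRP-LF. The nearest measured genes to PGRP-LB, each 2 genes away, had means of 58.4 in X1 and 88.8 in w1118 (CG17230) and of 11.3 and 14.8 (dpr5).

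The profile of PGRP-LB was compared with that of every other probe set with 1 gene symbol, by the root mean square difference over the 5 GAL4 arrays of log2 intensity minus the w1118 mean. The closest were the troponin C gene TpnC73F (0.15), CG9776 (0.21), CG11562 (0.33), Ccm3 (0.36) and CG11438 (0.50). TpnC73F lay 6.23 to 6.30 log2 units above w1118 on all 5 arrays, where PGRP-LB lay 6.06 to 6.53 above. These likenesses describe 5 arrays from 2 lines and were not tested.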

How the data were processed

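The deposited values are dChip intensity values on a linear scale. The authors normalised all arrays to a single baseline array, whose median intensity was 145, per the series text. The dChip version and its treatment of low values are not given in the sources used here. In all, the table held 18952 probe sets in 7 columns. The 183 Affymetrix control probe sets were left out of the tests. The platform annotation gave 1 symbol for 13647 fly probe sets, several for 402 and none for 4720. By Entrez gene, 13544 of the first matched the Release 6 gene table and 0 symbols changed.

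Intensities under 16 were raised to 16 and log2 was taken. The 5 arrays of X1 and w1118 were fitted in limma 3.58.1 (R 4.3.3). The contrasts with line 89 came from one fit of 7 arrays in 3 groups, both line 89 arrays forming 1 group. The script was tested on simulated data. Array number limits precision, as no depth exists for arrays. The members and lists were chosen with earlier results of these data known. All members were named. From other lists, each gene with its brightest probe set, up to 4 called genes per direction were named by adjusted p, together with the 5 closest profiles to PGRP-LB and the neighbours. Some uncalled genes, such as Diap2 and PGRP-SB2, were named outside this rule. Counts of lists without X1 replicate 1 were added after seeing the data. Alternatives covered floors of 1 and 64, quantile and hybridization control scaling, a brightness filter, another threshold, an intensity trend, other groupings, a replicate block and leaving out each array.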

Additional observations from a re-analysis of the deposited data

Results flagged for a closer look

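The 3 antimicrobial peptide genes edin, CecB and DptB differed between X1 and line 89 in limma's direct test of the lines, which is also the difference of their changes against w1118. The X1-minus-line 89 difference was -3.95 for edin (11.9 in X1, 260 in line 89; adjusted p = 0.00223). As 2 of the 3 X1 values lay under the floor of 16, this is a bound, at least 15.4-fold lower, and it was -4.55 with a floor of 1 and -2.02 with a floor of 64. The difference was -5.34 for CecB (224 and 8404; adjusted p = 0.0340) and -2.02 for DptB (73.7 and 289; adjusted p = 0.0465). All 3 X1 arrays lay below both line 89 arrays for each, as they did for 23.8% of all probe sets. All 3 calls ended without X1 replicate 2 or 3, in fits that called 0 probe sets in all. limma called 0 of the 10 IMD and PGRP genes in this comparison, with 2 at an unadjusted p under 0.05, beside 19.3% of all probe sets.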

How the results depend on the processing

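The rise of PGRP-LB kept its call in 14 of 15 alternatives for X1 (6.2 to 7.06) and in 11 of 12 for line 89 (6.0 to 6.77), and that of pirk in X1 in 12 of 15 (3.40 to 4.31). The brightness filter is no separate check on PGRP-LB. With a w1118 mean of 69.4, this gene passed the filter only through its GAL4 means. The exceptions for PGRP-LB were the replicate block and the fit of line 89 and w1118 arrays only, each of which called 0 probe sets in all. In X1 the counts of the 10 genes called, 3 higher and 0 lower, became 5 and 1 when probe sets under 100 in both group means were dropped (22.4% and 21.6% of the probe sets left). This filter also dropped PGRP-SB1, in X1 and in line 89, so its counts are of the other genes. Leaving out single X1 arrays gave 3 to 5 higher and 0 to 1 lower. In those fits 3.93% to 10.3% of all probe sets were higher and 4.52% to 11.9% lower. Where 1 w1118 array was left, PGRP-LB kept its call. That of pirk ended without w1118 replicate 1 (3.61) and without replicate 2 (3.66). The call of IKKbeta ended without replicate 1 (0.94) and held without replicate 2 (1.02). In line 89 the 1 called gene became 2 with hybridization control scaling (6.67% higher in all) and 3 with the brightness filter (9.81% higher in all). With line 89 and w1118 arrays only it became 0, where limma called 0 probe sets in all (3053 at an unadjusted p under 0.05). Without single arrays, which leaves 1 array in a group, the change of PGRP-LB was 6.0 to 6.38. For X1 against line 89, leaving out X1 replicate 2 or 3 left 0 called probe sets in all. With the replicate block limma called 0 of the 10 higher in X1 and 0 probe sets in all (4491 at an unadjusted p under 0.05). The replicate numbers are not shown to pair samples: deviations of same-numbered X1 and w1118 arrays correlated at -0.049 and -0.012. Signs turned for uncalled genes. In X1 these were PGRP-LA with quantile normalisation (-0.09), key (0.24), PGRP-LE (0.52) and PGRP-SB1 (0.03) with hybridization control scaling, and PGRP-LE without X1 replicate 1 (0.03; -0.27 to 0.03 without single arrays). In line 89 they were PGRP-LE (0.28) and PGRP-SB1 (0.49) with that scaling, and PGRP-SB1 with a floor of 64 (0.02), without w1118 replicate 2 (0.35) and without the 1-copy array (0.49; -0.66 to 0.49 without single arrays). For X1 against line 89 they were PGRP-SB1 without the 2-copy array (0.03; -1.13 to 0.03) and pirk without the 1-copy array (-0.65; -0.65 to 1.24). The cause was not tested. Over all probe sets, 3404, 822 and 371 were called in X1, line 89 and X1 against line 89, and 0 to 4170, 0 to 1804 and 0 to 1138 across alternatives.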
